A study of Mus musculus with 45 samples.

Results

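The trophectoderm is the outer epithelium of the mouse blastocyst, and 10 transcription factor genes that act in it or in its derivatives were followed through all 18 RNA-seq libraries of the series. The genes were chosen by name, *Cdx2*, *Gata2*, *Gata3*, *Tfap2a*, *Tfap2c*, *Eomes*, *Elf5*, *Hand1*, *Msx2* and *Klf6*, and make up 10 of the 55385 genes in the tables. Every embryo and cell, those given the DMSO vehicle included, carried a degron tag on both *Gabpa* alleles (*Gabpa* dTAG/dTAG), and dTAG13 is a small molecule that sends the tagged GABPA protein to the proteasome. Late two-cell embryos received DMSO or 1 µM dTAG13 from 6 to 30 h post fertilization (hpf) and gave 3 libraries per treatment. Morulae were treated from 42 hpf, and the E4.5 inner cell mass (ICM) was treated from 84 hpf and collected at 100 hpf, at 1 µM and with 2 libraries per treatment each. 2iES cells, embryonic stem cells of the E14 line held in 2i and LIF and grown from picked clones, received 0.5 µM for 24 h, again with 2 libraries per treatment. Embryos came from tagged males and females of a line that was crossed back to C57BL/6J, by in vitro fertilization and culture. The ICM was freed of its trophectoderm cells by immunosurgery, so it holds epiblast (EPI) and primitive endoderm (PrE) cells together.

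In the early embryo the outer cells of the morula, in which YAP enters the nucleus and works with TEAD4, switch on *Cdx2* and *Gata3*, and these factors hold the trophectoderm programme while OCT4, NANOG and SOX2 hold that of the ICM. *Tfap2a* and *Tfap2c* encode AP-2 factors, and *Tfap2c* is needed for early *Cdx2* and for polarity genes. *Eomes* and *Elf5* act in the trophoblast stem cell compartment, *Gata2* and *Hand1* in trophoblast giant cells, and *Msx2* and *Klf6* are a homeobox gene and a Krüppel-like factor gene used in many tissues. Embryonic stem cells are derived from the EPI and normally do not enter this lineage.

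Expected counts per library summed to 20449966 to 23718870 for late two-cell embryos, 9457933 to 12382705 for morulae, 18266057 to 20818291 for the ICM and 20146785 to 27660132 for 2iES cells. *Gabpa* messenger RNA was present in every library, as a degron on the protein allows, at 90.9 to 125 FPKM with DMSO against 153 to 170 with dTAG13 in late two-cell embryos, 8.79 to 10.2 against 15.9 to 16.6 in morulae, 11.0 to 12.0 against 29.9 to 30.4 in the ICM and 7.05 to 8.67 against 14.5 to 14.7 in 2iES cells. FPKM are fragment counts scaled for transcript length and library size, so levels can be set side by side between genes. For *Gabpa* in the ICM the length used was 3874 and 3735 bases with DMSO and 2941 and 3002 with dTAG13. Its counts, 849 and 823 against 1534 and 1595, are the safer measure there, with a log2 change of 0.95 (SE 0.05). Libraries of 1 group correlated at r = 0.972 to 0.987. The 2 ICM libraries of a treatment differed by only 1.62 to 1.69 times the sampling noise, against 2.86 to 16.1 times in the other groups, so that small differences pass a test in the ICM. The study's figure legends call the libraries of a group biological replicates, but the labels name no separate cultures or animals for them. The p-values here measure the spread between these libraries only.

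A gene was called where edgeR's quasi-likelihood test gave a Benjamini-Hochberg adjusted p under 0.05 over all genes tested, the fold change was at least 2 and the mean FPKM was at least 1 in at least 1 of the groups compared.

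Sequence around the starts of these genes is shown for the 3 members that the results turn on most, with that of *Gabpa* for comparison. The windows are from RefSeq on GRCm38.p6, run 5′ to 3′ on the strand of the gene, and hold 250 bases before and 50 bases from the start of a transcript. Of the 10 genes, 8 had a window (11 windows in all), and *Tfap2c* and *Hand1* had none. Capitals mark matches, on either strand, to CCGGAAG (the motif of ETS factors such as GABPA, CTTCCGG on the other strand), GCCNNNGGC (AP-2 factors, its own reverse complement), GGAATG (TEAD factors, CATTCC) and GATAA (GATA factors, TTATC). None of these patterns holds another. *Cdx2* starts on chr5:147307200-147307499, minus strand, *Gata3* on chr2:9878551-9878850, minus strand, *Elf5* at an upstream start on chr2:103411848-103412147 and a downstream start on chr2:103423818-103424117, plus strand, and *Gabpa* on chr16:84834874-84835173, plus strand.
Cdx2: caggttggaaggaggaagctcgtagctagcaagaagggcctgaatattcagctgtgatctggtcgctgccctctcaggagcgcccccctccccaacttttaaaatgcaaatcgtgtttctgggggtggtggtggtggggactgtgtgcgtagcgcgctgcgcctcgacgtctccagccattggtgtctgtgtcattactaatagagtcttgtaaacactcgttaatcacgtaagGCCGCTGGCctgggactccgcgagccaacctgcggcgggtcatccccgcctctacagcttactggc
Gata3: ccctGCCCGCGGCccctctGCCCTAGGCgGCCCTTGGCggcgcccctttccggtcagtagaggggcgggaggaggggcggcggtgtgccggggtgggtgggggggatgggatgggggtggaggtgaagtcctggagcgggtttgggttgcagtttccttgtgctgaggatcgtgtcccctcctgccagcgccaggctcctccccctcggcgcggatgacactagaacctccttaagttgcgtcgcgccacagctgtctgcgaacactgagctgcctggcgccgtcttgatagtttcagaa
Elf5 upstream start: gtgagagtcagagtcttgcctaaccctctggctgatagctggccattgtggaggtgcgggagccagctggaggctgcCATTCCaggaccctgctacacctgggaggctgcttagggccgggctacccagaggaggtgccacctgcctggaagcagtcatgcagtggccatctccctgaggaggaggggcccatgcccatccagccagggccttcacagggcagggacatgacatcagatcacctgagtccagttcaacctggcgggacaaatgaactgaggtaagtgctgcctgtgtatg
Elf5 downstream start: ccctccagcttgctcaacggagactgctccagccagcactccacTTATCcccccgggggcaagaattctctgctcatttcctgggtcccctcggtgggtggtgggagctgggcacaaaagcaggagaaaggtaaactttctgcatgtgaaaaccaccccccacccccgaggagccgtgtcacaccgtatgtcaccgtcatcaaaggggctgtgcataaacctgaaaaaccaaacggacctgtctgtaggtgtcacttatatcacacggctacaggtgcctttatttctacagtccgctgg
Gabpa: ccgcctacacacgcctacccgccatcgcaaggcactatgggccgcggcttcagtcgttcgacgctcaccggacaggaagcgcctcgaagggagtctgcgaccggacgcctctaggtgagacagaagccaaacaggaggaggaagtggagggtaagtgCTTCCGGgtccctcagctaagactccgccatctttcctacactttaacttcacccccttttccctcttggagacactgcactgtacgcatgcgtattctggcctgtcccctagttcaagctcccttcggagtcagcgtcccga
The ETS motif occurred in 8.86% of all 32851 windows, in 0 of the 11 windows of these genes and once in that of *Gabpa*. The AP-2 motif occurred in 16.6% of windows, 3 times in *Gata3* and once each in *Cdx2* and 1 of the 2 *Gata2* windows. The TEAD motif occurred in 14.7% of windows, among them that of the upstream *Elf5* start and 1 *Gata2* window, and the GATA motif in 25.4%, among them that of the downstream *Elf5* start. These are matches of letters in short windows and were not set against binding.

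Among the DMSO groups, 6 of the 10 genes were highest in morulae (*Cdx2*, *Gata3*, *Tfap2a*, *Tfap2c*, *Eomes* and *Elf5*), 2 in the ICM (*Msx2* and *Klf6*), *Gata2* in 2iES cells and *Hand1* at the late two-cell stage. By TPM the order of stages was the same for 9, *Eomes* being the exception. The plot of FPKM by library shows these levels for each gene, and gene positions given with the values are on GRCm38.

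**Figure D1:**
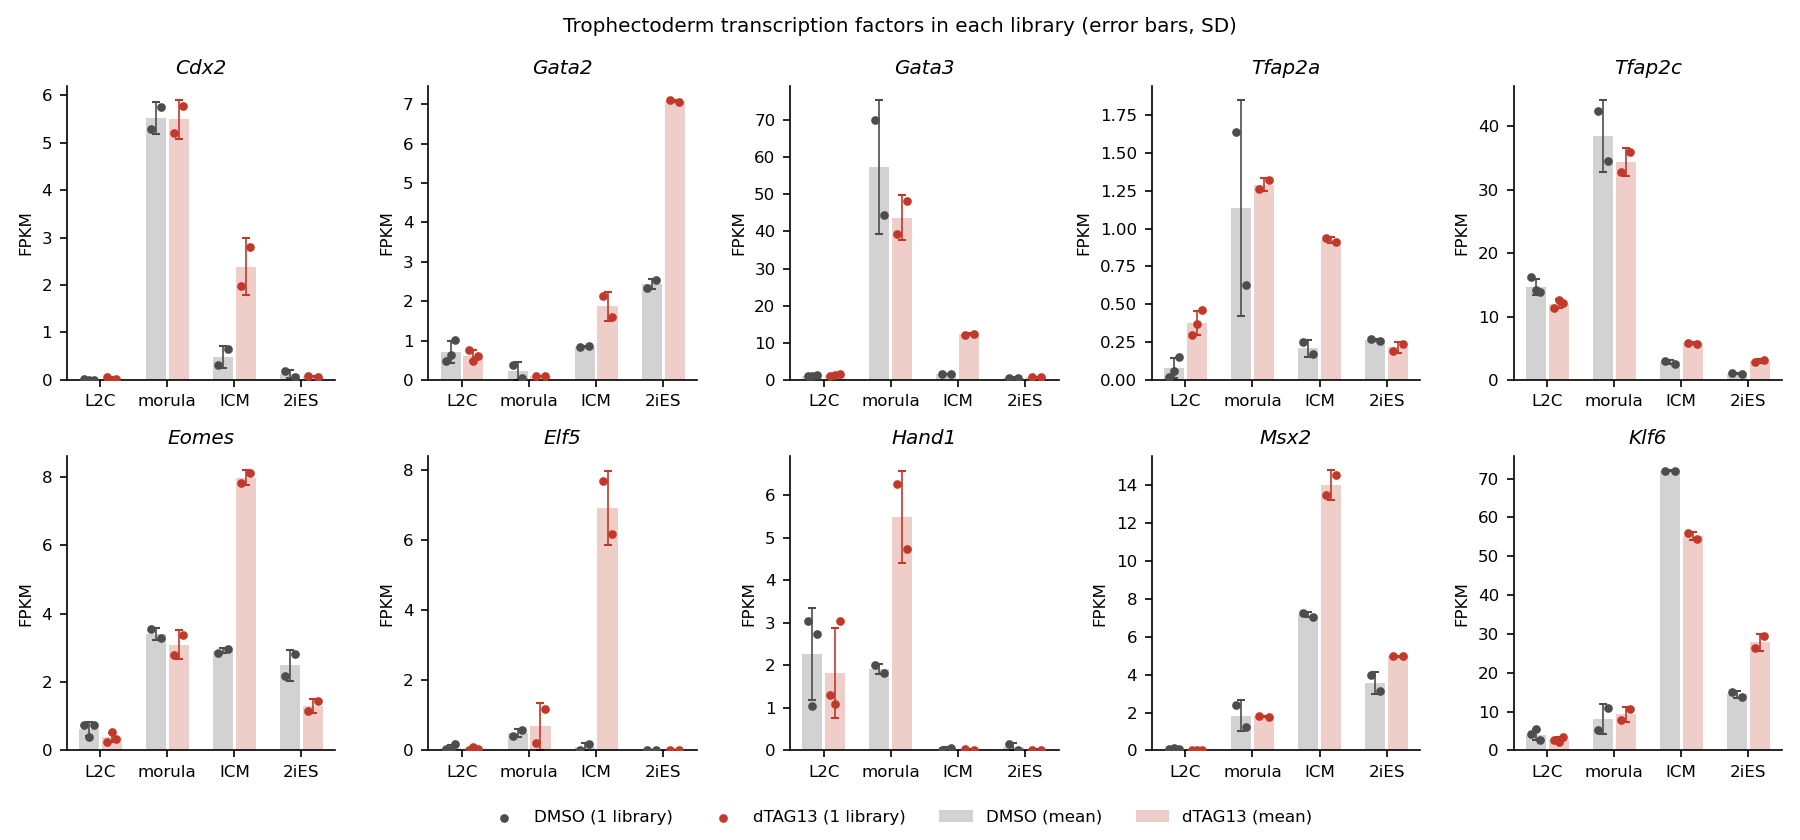
FPKM of the 10 trophectoderm factor genes in each of the 18 libraries, by stage, with DMSO and dTAG13 in separate colours, points for libraries, bars for group means and error bars for the SD, cut at 0. L2C stands for late two-cell embryos. *Gata3* reached 44.6 to 70.1 FPKM in DMSO morulae and 1.64 to 1.71 in the DMSO ICM, and 12.2 to 12.5 in the ICM with dTAG13.

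*Cdx2* (chr5:147300805-147307270, minus strand), the homeobox gene that holds trophectoderm identity, was at 0.02, 0 and 0 FPKM in the DMSO late two-cell libraries, 5.29 and 5.76 in morulae, 0.32 and 0.65 in the ICM and 0.19 and 0.07 in 2iES cells. The morula libraries were thus far above those of the other stages. Its 240 counts in morulae stood against 1 count at the late two-cell stage, a ratio per total count of 758 with a 95% counting interval of 135 to 30064. From morula to ICM it was lower by 3.62 on the log2 scale (SE 0.52, adjusted p = 2.01e-05, quasi-likelihood test).

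*Gata3* (chr2:9857078-9890034, minus strand), a zinc finger gene switched on beside *Cdx2*, was at 1.07 to 1.28 FPKM in late two-cell embryos, 70.1 and 44.6 in morulae, 1.71 and 1.64 in the ICM and 0.43 and 0.63 in 2iES cells with DMSO. It had the highest level of the 10 genes in morulae, with a mean of 57.3 ± 18.1 FPKM (SD, n = 2). The log2 change was 5.63 (SE 0.22) from late two-cell to morula and -5.19 (SE 0.26) from morula to ICM, with adjusted p of 3.82e-13 and 4.87e-11 in edgeR's quasi-likelihood test.

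Both AP-2 genes were highest in the morula, at different levels. *Tfap2c* (chr2:172549593-172558622, plus strand) was already at 13.8 to 16.2 FPKM in late two-cell embryos, at 42.5 and 34.5 in morulae, 3.00 and 2.57 in the ICM and 1.04 and 0.97 in 2iES cells. *Tfap2a* (chr13:40715302-40738376, minus strand) was at 0.02 to 0.15, then 1.64 and 0.63, then 0.25 and 0.17, and at 0.27 and 0.26 FPKM. *Tfap2c* was therefore present in every sample. *Tfap2a* was at or below 0.27 FPKM in the DMSO libraries outside the morula, with 22 and 24 counts in 2iES cells. Other genes overlap 14.6% of the exonic bases of *Tfap2a* on the opposite strand and it shares 12.7% of its 31-base words with other genes, so that its level is less certain in this unstranded assay.

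*Eomes* (chr9:118478212-118486132, plus strand), a T-box gene, was at 0.40 to 0.75 FPKM, 3.54 and 3.29, 2.86 and 2.97, and 2.17 and 2.81 from late two-cell embryos to morulae, ICM and 2iES cells. It rose between the late two-cell stage and the morula by 2.55 on the log2 scale (SE 0.31, adjusted p = 7.74e-07), and its morula to ICM difference of -0.42 (SE 0.32) had an adjusted p of 0.307 in the same test. *Elf5* (chr2:103411688-103450989, plus strand), an ETS gene of trophoblast stem cells, was low throughout, at 0.02 to 0.18, then 0.41 and 0.58, then 0.02 and 0.19, and 0 and 0 FPKM. Its late two-cell and ICM libraries overlapped. The 9 counts in the DMSO ICM, 1 and 8 by library, stood against 0 in 2iES cells. With a floor of 3 counts over the group in place of 0, that was 4.13-fold higher per total count.

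The giant cell genes did not peak in the morula. *Gata2* (chr6:88193891-88207032, plus strand) was at 0.47 to 1.02 FPKM in late two-cell embryos, 0.39 and 0.06 in morulae, 0.83 and 0.85 in the ICM and 2.34 and 2.53 in 2iES cells. *Hand1* (chr11:57828705-57832818, minus strand) was at 1.04 to 3.05, 2.00 and 1.83, 0 and 0.06, and 0.14 and 0.02 FPKM. *Hand1* thus overlapped between the first 2 stages and was at 2 counts in the ICM against 67 in morulae, 65.5-fold lower per total count with a counting interval of 17.4 to 552. Its log2 change from morula to ICM was -5.93, with -8.95 to -5.05 over the alternatives.

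The remaining pair were ICM genes in these samples. *Msx2* (chr13:53466884-53473074, minus strand) was at 0.08 to 0.11 FPKM, 2.42 and 1.26, 7.25 and 7.06, and 3.99 and 3.15 in the order late two-cell, morula, ICM and 2iES. *Klf6* (chr13:5861482-5870394, plus strand) was at 2.56 to 5.56, 5.33 and 10.9, 72.1 and 71.9, and 15.1 and 13.8 FPKM. Both were highest in the ICM without overlap, and for *Klf6* the late two-cell and morula libraries overlapped.

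Tested across all 18 libraries in 1 fit, 7 of the 10 genes were called between DMSO late two-cell embryos and morulae, all 7 higher in morulae, where 46.1% of genes tested were called and 20.7% were higher. They were *Cdx2*, *Gata3*, *Tfap2a*, *Msx2*, *Eomes*, *Klf6* and *Tfap2c*, with a median over the 10 genes of 2.46 on the log2 scale against -0.31 over all 21915 genes tested. Between morula and ICM 7 were called, where 26.8% of genes tested were, 14.7% higher and 12.0% lower in the ICM. *Klf6* (2.59, SE 0.22) and *Msx2* (1.87, SE 0.29) were higher in the ICM, and *Hand1*, *Gata3*, *Tfap2c*, *Cdx2* and *Tfap2a* were lower, by 5.93, 5.19, 3.90, 3.62 and 2.81 in log2 terms. Between ICM and 2iES cells 3 were called against 22.5% of genes tested (11.5% higher and 11.0% lower in the ICM), *Klf6* (1.95, SE 0.21) and *Gata3* (1.18, SE 0.27) higher and *Gata2* (-2.14, SE 0.36) lower in the ICM. Without the first DMSO morula library *Tfap2a* was called in neither of the first 2 comparisons, and without the first DMSO 2iES library *Gata3* was not called in the last. Stage goes together with embryo collection, and the DMSO libraries used here are those of the dTAG13 comparisons as well.

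The question of the ICM samples was what GABPA degradation from 84 to 100 hpf does to genes of the lineages. Of the 10 genes, 9 passed the filter on low counts (not *Hand1*), and 5 were called, all higher with dTAG13, namely *Elf5*, *Gata3*, *Cdx2*, *Eomes* and *Gata2*. Of all genes tested 25.3% were called and 12.1% were called higher. *Tfap2a*, *Tfap2c* and *Msx2* were also higher and *Klf6* lower at an adjusted p under 0.05, but below 1 of the other limits. The median log2 change of the 9 genes was 1.43 against 0.01 over all genes tested. All 9 had libraries that did not overlap between the treatments, as did 84.8% of genes tested, and 76.9% had an adjusted p under 0.05. In a bulk sample more cells of a type and more RNA per cell cannot be told apart.

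**Figure D2:**
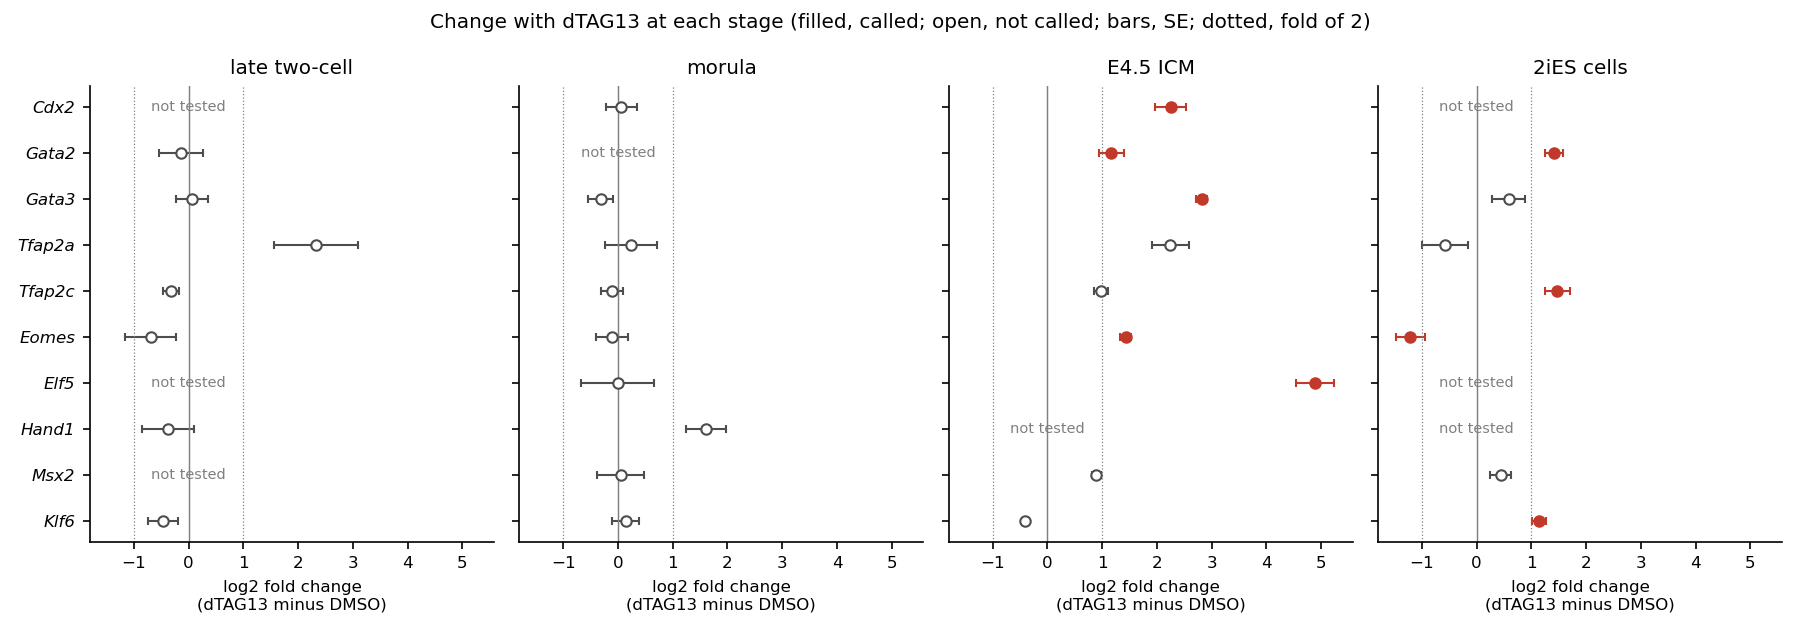
Log2 fold change with dTAG13 against DMSO of the 10 genes at the 4 stages, with points for estimates from edgeR, bars for the standard error and filled points for called genes. Genes that did not pass the count filter at a stage are marked as not tested. The called genes are in the ICM (*Elf5*, *Gata3*, *Cdx2*, *Eomes*, *Gata2*) and in 2iES cells (*Tfap2c*, *Gata2*, *Klf6* higher, *Eomes* lower).

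*Gata3* was at 1.71 and 1.64 FPKM (108 and 96 counts) with DMSO and 12.2 and 12.5 (676 and 718 counts) with dTAG13. Each dTAG13 library thus lay far above both DMSO libraries, and the log2 change was 2.82 (SE 0.10, adjusted p = 2.74e-24). *Cdx2* was at 0.32 and 0.65 FPKM (14 and 26 counts) with DMSO and 1.97 and 2.81 (75 and 111 counts) with dTAG13, a log2 change of 2.25 (SE 0.28, adjusted p = 5.68e-09). Set beside the mean of DMSO morulae, the ICM held 2.92% of the *Gata3* level with DMSO and 21.5% with dTAG13, and 8.78% and 43.3% of the *Cdx2* level, on FPKM that are scaled within each library.

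*Elf5* had the largest change of the 10 genes in the ICM. It was at 0.02 and 0.19 FPKM (1 and 8 counts) with DMSO and at 7.68 and 6.17 (136 and 130 counts) with dTAG13. The groups did not overlap, the log2 change was 4.89 (SE 0.35, adjusted p = 2.77e-15), and the ratio of summed counts per total count was 31.9 with a counting interval of 16.6 to 70.6. The transcript length that RSEM used for the gene was 2222 and 2410 bases with DMSO and 1144 and 1283 bases with dTAG13, and FPKM divide by this length, so the counts are the safer measure. The isoforms of the gene were not told apart here.

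*Eomes* was at 2.86 and 2.97 FPKM (180 and 178 counts) with DMSO and 7.82 and 8.13 (451 and 484 counts) with dTAG13, 1.43 on the log2 scale (SE 0.10, adjusted p = 4.10e-15). *Gata2* was at 0.83 and 0.85 FPKM (51 and 38 counts) with DMSO and 2.13 and 1.60 (115 and 79 counts) with dTAG13, 1.17 on the log2 scale (SE 0.23, adjusted p = 2.28e-05). Treated libraries were above controls for both genes, and *Eomes* was also above its mean of 3.42 FPKM in DMSO morulae. Without the first dTAG13 library the *Gata2* change was 0.85 on the log2 scale, under the fold limit. Leaving out the first DMSO library gave 1.81 for *Cdx2* and 4.01 for *Elf5*, and leaving out the second gave 2.81 and 6.97.

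The AP-2 genes had higher values with dTAG13 but each missed 1 of the limits of a call. *Tfap2a* was at 0.25 and 0.17 FPKM (14 and 8 counts) with DMSO and 0.94 and 0.91 (52 and 50 counts) with dTAG13, a log2 change of 2.25 (SE 0.35, adjusted p = 3.66e-07) with means below 1 FPKM in both groups. *Tfap2c* was at 3.00 and 2.57 FPKM with DMSO and 5.88 and 5.66 with dTAG13, 0.98 on the log2 scale (SE 0.13, adjusted p = 1.31e-08). Scaling by library totals alone, by upper quartiles, and leaving out some single libraries put *Tfap2c* above the fold limit.

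*Msx2* was at 7.25 and 7.06 FPKM with DMSO and 13.5 and 14.6 with dTAG13, 0.89 on the log2 scale (SE 0.08, adjusted p = 5.55e-12). *Klf6* had the only negative log2 change of the 9 genes and was not called, at 72.1 and 71.9 FPKM with DMSO and 56.0 and 54.4 with dTAG13. Its log2 change was -0.41 (SE 0.04, adjusted p = 1.37e-12), under the fold limit, and over the alternatives the adjusted p went up to 0.158, with all 18 libraries in 1 fit. *Hand1* had 0 and 2 counts with DMSO and 1 and 0 with dTAG13, and its change was not detectable at this depth.

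In 2iES cells the question was what 24 h of degradation did to the same genes in cells derived from the EPI. Of 7 genes that passed the count filter (not *Cdx2*, *Elf5* and *Hand1*), 4 were called, with *Tfap2c*, *Gata2* and *Klf6* higher and *Eomes* lower, where 28.0% of genes tested were called, 12.4% higher and 15.6% lower. The median log2 change was 0.58 against 0.03 over all genes tested.

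*Gata2* was at 2.34 and 2.53 FPKM with DMSO and 7.10 and 7.06 with dTAG13, and both treated libraries were thus above both controls, by 1.42 on the log2 scale (SE 0.16, adjusted p = 0.00059). *Tfap2c* was at 1.04 and 0.97 FPKM with DMSO and 2.81 and 3.16 with dTAG13 (log2 change 1.47, SE 0.22, adjusted p = 0.0018). *Klf6* was at 15.1 and 13.8 FPKM with DMSO and 26.3 and 29.3 with dTAG13 (log2 change 1.15, SE 0.13, adjusted p = 0.00052). These 3 genes had no overlap between treatments, as was so for 78.7% of all genes tested.

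*Eomes* was at 2.17 and 2.81 FPKM with DMSO and 1.15 and 1.44 with dTAG13, -1.21 on the log2 scale (SE 0.26, adjusted p = 0.0074, and 6.83e-06 to 0.0443 over the alternatives). *Gata3* (0.43 and 0.63 against 0.84 and 0.80 FPKM), *Msx2* (3.99 and 3.15 against 4.98 and 4.96 FPKM) and *Tfap2a* (0.27 and 0.26 against 0.19 and 0.24 FPKM) did not pass the test, with adjusted p of 0.145, 0.0944 and 0.282. *Cdx2* had 11 and 4 counts with DMSO and 4 and 3 with dTAG13, *Elf5* 1 count in all 4 libraries together and *Hand1* 7 with DMSO and 1 with dTAG13.

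In morulae, treated after genome activation, 0 of 9 genes that passed the filter (not *Gata2*) were called by edgeR's quasi-likelihood test, where 0.351% of all genes tested were. At an unadjusted p under 0.05 there was 1 gene, *Hand1*, against 13.6% of all genes tested, and DESeq2 also called 1, again *Hand1*, against 0.812%. *Hand1* was at 2.00 and 1.83 FPKM (32 and 35 counts) with DMSO and 6.26 and 4.73 (136 and 93 counts) with dTAG13. The groups did not overlap, as was so for 6146 of 13667 genes tested, the log2 change was 1.61 (SE 0.36) and the adjusted p 0.0741, with 0.00652 to 0.296 over the alternatives. It was called without the count filter, with the replicate number as a block, and without the second DMSO or the second dTAG13 library. *Cdx2* (5.29 and 5.76 against 5.20 and 5.78 FPKM) and *Eomes* (3.54 and 3.29 against 2.80 and 3.39 FPKM) overlapped between the treatments. *Gata3*, with 70.1 and 44.6 FPKM against 39.4 and 48.1, had 1 high DMSO library and a log2 difference of -0.31 (SE 0.23, adjusted p = 0.580).

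In late two-cell embryos 0 of 7 genes that passed the filter (not *Cdx2*, *Elf5* and *Msx2*) were called by edgeR's quasi-likelihood test, where 4.11% of all genes tested were. At an unadjusted p under 0.05 there was 1 gene, *Tfap2a*, against 21.3% of all genes tested, and DESeq2 called 0, against 4.67%. *Tfap2a* was at 0.02, 0.06 and 0.15 FPKM (1, 4 and 6 counts) with DMSO and 0.30, 0.37 and 0.46 (16, 20 and 27 counts) with dTAG13. All treated libraries were above all controls, as was so in either direction for 27.7% of genes tested, with a log2 change of 2.33 (SE 0.76, adjusted p = 0.0992). *Tfap2c* was at 13.8 to 16.2 FPKM with DMSO and 11.3 to 12.6 with dTAG13 without overlap (log2 change -0.32, SE 0.14, adjusted p = 0.236). *Msx2* had 4, 5 and 5 counts with DMSO and 0 in each dTAG13 library. With a floor of 3 counts over the group in place of 0, that was 4.96-fold lower per total count.

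Whether the response to dTAG13 differed between samples was tested as an interaction in the fit of all 18 libraries. Between ICM and 2iES cells 5 of the 10 genes differed at an adjusted p under 0.05, where 17.4% of genes tested did, 7.42% with a more positive effect in the ICM and 9.93% with a more negative one. The difference was 3.03 on the log2 scale for *Cdx2* (SE 0.91, adjusted p = 0.0286), 2.79 for *Tfap2a* (SE 0.81, adjusted p = 0.0250), 2.60 for *Eomes* (SE 0.45, adjusted p = 7.89e-04), 2.19 for *Gata3* (SE 0.37, adjusted p = 6.39e-04) and -1.60 for *Klf6* (SE 0.29, adjusted p = 0.00113). *Eomes* was called higher in the ICM and lower in 2iES cells, while *Klf6* was called higher in 2iES cells and was not called in the ICM. For *Gata2* and *Tfap2c*, which were higher with dTAG13 in both, the differences of -0.29 (SE 0.49) and -0.54 (SE 0.25) had adjusted p of 0.813 and 0.151. The doses and exposure times of the 2 differ.

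**Figure D3:**
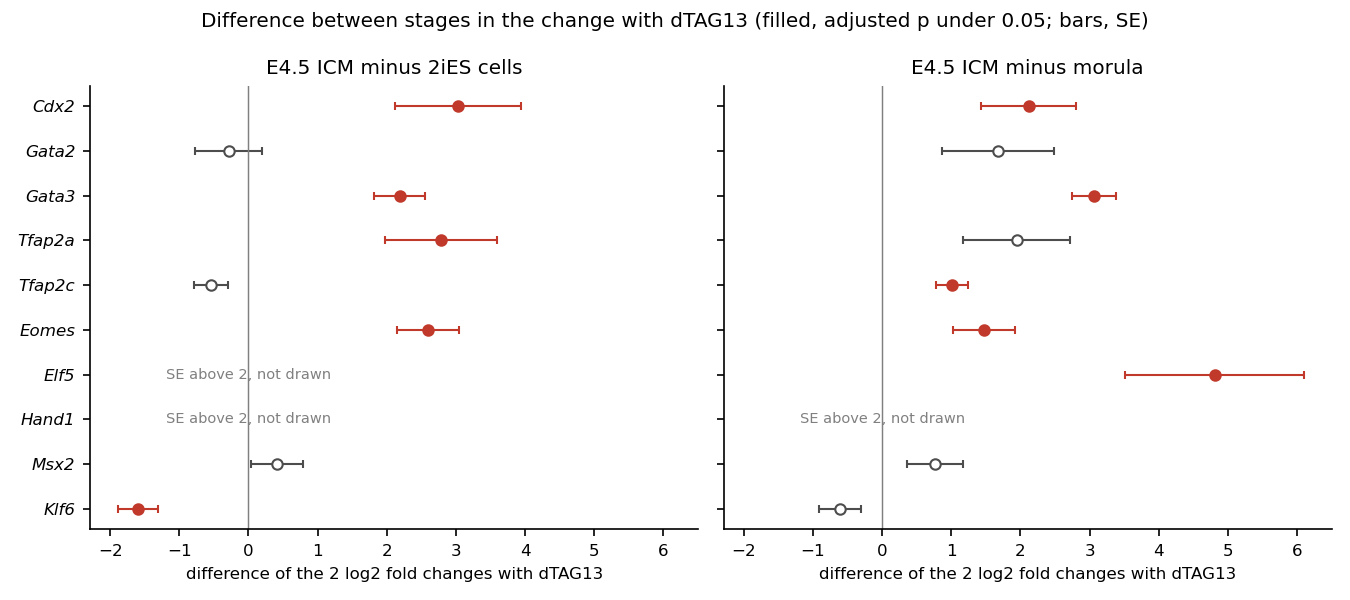
Difference between the log2 effect of dTAG13 in the ICM and that in 2iES cells or morulae for the 10 genes, with points for estimates from edgeR over all 18 libraries bars for the standard error and filled points for an adjusted p under 0.05. *Elf5* against 2iES cells and *Hand1*, with standard errors above 2, are not drawn. *Gata3* lies above 0 in both panels, at 2.19 and 3.06, and *Klf6* below 0 at -1.60 against 2iES cells.

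Between ICM and morula 5 of the 10 genes differed as well, where 16.1% of genes tested did and 5.44% had a more positive effect in the ICM. They were *Elf5* (4.81, SE 1.3, adjusted p = 0.0177), *Gata3* (3.06, SE 0.32, adjusted p = 5.33e-06), *Cdx2* (2.12, SE 0.68, adjusted p = 0.0415), *Eomes* (1.47, SE 0.45, adjusted p = 0.0327) and *Tfap2c* (1.01, SE 0.23, adjusted p = 0.00565), each with the more positive effect in the ICM. The ICM libraries enter both interactions, so these are not independent. *Gata3*, *Eomes* and *Klf6* against 2iES cells, and *Gata3* and *Tfap2c* against morulae, kept an adjusted p under 0.05 with each library left out and under each other alternative. *Cdx2* and *Tfap2a* against 2iES cells and *Elf5*, *Cdx2* and *Eomes* against morulae did not. Without the first DMSO ICM library, for example, 3 and 2 of the 10 genes differed.

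Other genes of the trophectoderm programme were counted in the same way. In the ICM, where 25.3% of all genes tested were called and 12.1% were higher, 11 of 12 upstream and partner factors were tested and 3 were called, a share near that of all genes. All 3 were higher, and the median log2 change of the 11 was 0.45. They were *Id2* (14.4 and 15.0 against 94.4 and 96.1 FPKM, log2 change 2.67), an inhibitor of bHLH factors that marks early outer cells, *Satb1* (2.10 and 1.70 against 10.5 and 10.0 FPKM, 2.56), a chromatin organizer, and *Wwtr1* (18.2 and 18.2 against 40.0 and 37.6 FPKM, 1.03), which encodes the YAP partner TAZ. Of 15 genes of trophectoderm epithelium and transport, 14 were tested, 9 were called higher, against 12.1% of all genes, and 1 lower, with a median of 1.25. Among the genes called higher were *Krt7* (4.66), *Krt18* (4.29) and *Krt8* (2.68), keratins that build the filaments of this epithelium. *Krt18* went from 24.9 and 26.8 FPKM to 524 and 526, above its 202 and 227 FPKM in DMSO morulae. The 1 lower gene, *Aqp3*, a water and glycerol channel named here after its values were seen, was at 25.7 and 26.2 FPKM with DMSO and 12.5 and 12.6 with dTAG13.

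**Figure D4:**
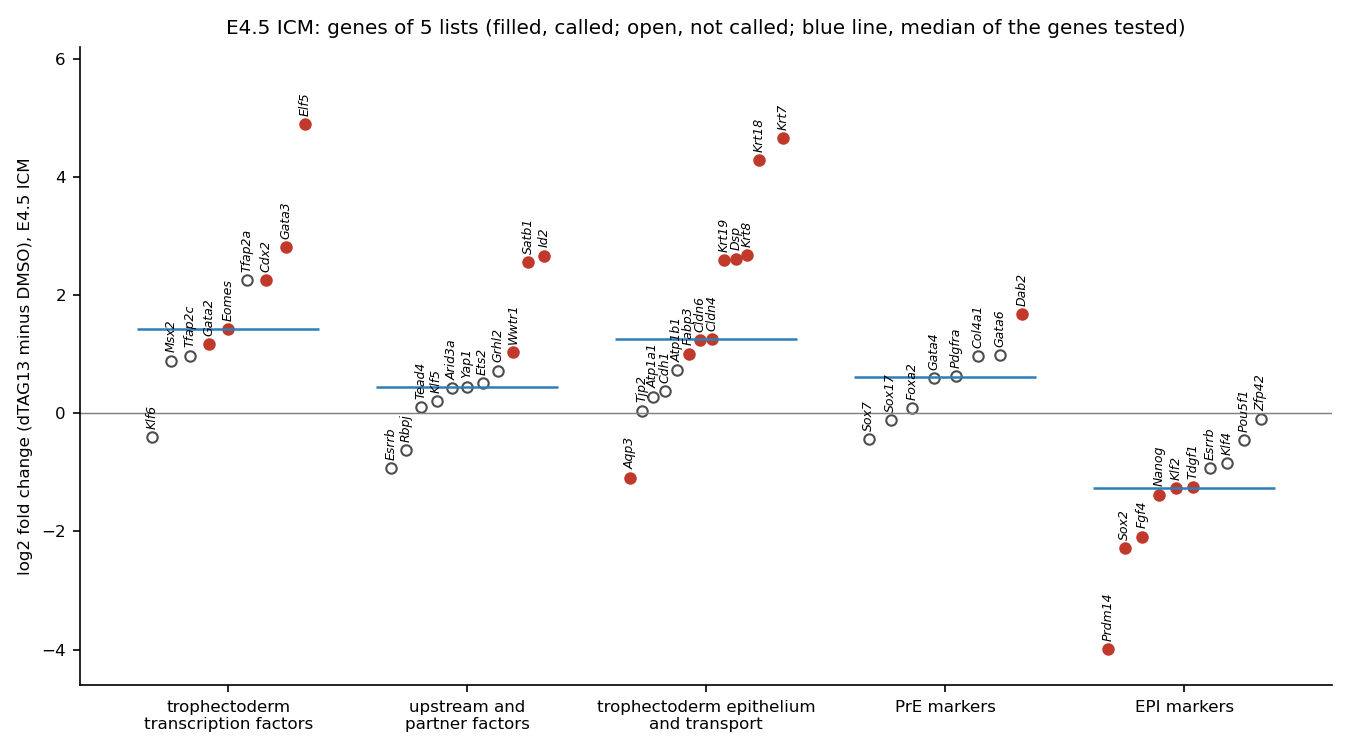
Log2 fold change with dTAG13 in the ICM for each tested gene of the trophectoderm factors, their upstream and partner factors, trophectoderm epithelium and transport genes, PrE markers and EPI markers, with filled points for called genes and a blue line for the median of each list. The epithelial list is drawn without 1 gene that enters its median. The keratins *Krt7*, *Krt18* and *Krt8* lie at 4.66, 4.29 and 2.68, and *Sox2* and *Nanog* at -2.29 and -1.38.

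Of 9 later trophoblast genes only 4 passed the count filter, of which *Plac1*, a placental gene, was called higher (22.9 and 21.9 against 65.6 and 69.7 FPKM, log2 change 1.53) and *Ascl2*, a bHLH gene of the ectoplacental cone, lower (1.51 and 1.92 against 0.61 and 0.96 FPKM, -1.18). Of the 4 opposing pluripotency factors 2 were called lower, *Sox2* (20.0 and 20.3 against 4.42 and 4.18 FPKM, -2.29) and *Nanog* (86.0 and 83.3 against 35.2 and 33.7 FPKM, -1.38). *Pou5f1*, which encodes OCT4, had a log2 change of -0.46 and *Sall4* of 0.01. In 2iES cells, where 28.0% of all genes tested were called and 60.8% had an unadjusted p under 0.05, the upstream factors had 0 of 11 called by edgeR or DESeq2 and 5 at that unadjusted p. The epithelial genes had 2 of 15 called, *Slc5a1* (2.58), a glucose transporter, and *Fabp3* (1.16), a fatty acid binding protein. There *Pou5f1* and *Nanog* were called lower by 1.75 and 1.12 in log2 terms, while *Sox2* was at 0.39 with an adjusted p of 0.121. In late two-cell embryos and morulae edgeR and DESeq2 called 0 genes of these 4 lists. At an unadjusted p under 0.05, which 21.3% of all genes tested reached in late two-cell embryos and 13.6% in morulae, there was 1 gene in each list in late two-cell embryos, while morulae had 2 of the epithelial genes, 1 of the pluripotency factors and 0 of the upstream and later trophoblast genes.

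Markers of the other cell types that the ICM samples could hold were counted in the same way. Of all genes tested in the ICM, 25.3% were called and 12.1% were called higher. The 10 trophectoderm markers, none of which is among the 10 factors, were all detected with DMSO and summed to 1561 to 1566 FPKM, against 3908 to 3962 with dTAG13, and 8 were called higher and 1 lower. Most of that sum was *Fabp3*, at 1416 and 1407 FPKM with DMSO and 2974 and 2933 with dTAG13. The 10 EPI markers summed to 947 to 955 FPKM with DMSO and 548 to 562 with dTAG13, with 6 called lower and 0 higher. The 8 PrE markers summed to 469 to 476 FPKM with DMSO and 944 with dTAG13. Of these 8, 1, *Dab2*, was called higher, a share near that of all genes. Most of the rise of the PrE sum was *Dab2*, at 154 and 146 FPKM with DMSO and 489 and 489.8 with dTAG13. *Gata6* (42.3 and 43.6 against 89.3 and 88.8 FPKM), *Gata4* (38.4 and 39.0 against 63.9 and 61.5 FPKM) and *Col4a1* (65.7 and 62.9 against 113 and 115 FPKM) were also higher. *Sox17* was at 111 and 116 against 105 and 104 FPKM. Of the 8 PrE markers 6 had a positive log2 change and 2 a negative one, with a median of 0.61. The part of trophectoderm cells left after immunosurgery, and of the ratio of EPI to PrE cells, in the results on the 10 factors was not tested. In 2iES cells 28.0% of all genes tested were called, 12.4% higher and 15.6% lower. There 3 of the 10 EPI markers were called lower, *Nanog*, *Pou5f1* and *Prdm14*. Of the 10, 6 had a negative log2 change and 4 a positive one, with a median of -0.31. The 10 EPI markers summed to 655 to 816 FPKM with DMSO and 533 to 581 with dTAG13. The trophectoderm markers summed to 1251 to 1339 against 2629 to 2714 FPKM there, with 1 of 10 called higher, *Fabp3*, which made up most of both sums (1083 and 1050 against 2376 and 2464 FPKM). The PrE markers summed to 3.52 to 5.51 against 5.65 to 6.08 FPKM, with 1 of the 4 tested called higher, *Col4a1* (0.44 and 0.30 against 1.71 and 1.18 FPKM). The part of these markers in the 2iES results on the 10 factors was not tested.

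Over all 18 libraries, *Cdx2* and *Gata3* followed each other at r = 0.98 on log2(FPKM + 1), *Msx2* and *Klf6* at 0.94 and *Gata3* and *Tfap2a* at 0.91. These correlations describe stages and treatments together and were not tested. Among 19450 genes with a mean of at least 1 FPKM in some group, the genes most like *Cdx2* were *BC048679* (r = 0.987), *Frrs1l* (0.983) and *Lrp2* (0.982), which encodes the endocytic receptor megalin. *BC048679* averaged 2.75 FPKM in the DMSO ICM and 14.2 with dTAG13, against 179 in DMSO morulae. The genes most like *Gata3* were *Trp53bp2* (0.986), *Dsp* (0.982), which encodes the desmosome protein desmoplakin, and *Cdx2* itself (0.981). *Dsp* averaged 0.79 FPKM in the DMSO ICM and 5.02 with dTAG13, against 7.42 in DMSO morulae.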

How the data were processed

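RNA-seq of *Gabpa* dTAG/dTAG embryos, ICM and 2iES cells was made with SMART-Seq v4 and Nextera XT, which do not keep strand. The authors used Trimmomatic 0.39 to trim, STAR 2.7.8a to align to GRCm38 and RSEM 1.3.1 to quantify, and they deposited expected counts, TPM, FPKM and a length per gene for each library. Chromatin libraries of the series were not used here. Of the 55385 identifiers, GENCODE M21 gave a symbol to 54487 with the version and to 657 more without it, and 241 had no symbol.

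Expected counts were rounded and tested with edgeR 4.0.16 (limma 3.58.1, R 4.3.3) with TMM scaling and the quasi-likelihood test. A gene entered a test with 10 counts or more in a number of libraries equal to the size of the smaller group. Benjamini-Hochberg adjustment ran over all genes of a test. dTAG13 was compared with DMSO within each stage. Stages and the differences between dTAG13 effects were tested in 1 fit of all 18 libraries, over genes with 10 counts in at least 2 libraries. Cut-offs were those of the study, an adjusted p of 0.05, a fold of 2 and a mean FPKM of 1, without fold or FPKM limits for the differences between effects. Alternatives were DESeq2 1.42.0, other scaling, filters and thresholds, FPKM ratios with pseudocounts of 0.1 and 1, the replicate number as a block, all libraries in 1 fit and each library left out in turn. Counting intervals are exact at 95% and cover counting error only, since no molecular identifiers mark the source molecule of a read. The floor of 3 counts stands in for 0 and leaves out the counting error of the other group. The fits were tested on simulated counts. Python 3.11.15 and pandas 2.3.3 served for tables.

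The 10 members and the other gene lists were chosen with earlier results of these data known. Named genes outside the members are, of each list, at most 4 called genes, by size of change, in a comparison and any gene of a list of 8 or fewer, and the 3 genes most like *Cdx2* and *Gata3*. *Fabp3* and *Aqp3* in the ICM were named after their values were seen. 1 gene of the epithelial list is counted but not reported here.

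Replicate numbers were not taken as pairs: deviations of libraries with the same number correlated at 0.024 to 0.074 at the late two-cell stage, 0.016 in morulae, -0.005 in the ICM and -0.165 in 2iES cells.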

Additional observations from a re-analysis of the deposited data

Results flagged for a closer look

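The effect of dTAG13 differed between samples, by a test of the difference in edgeR over all 18 libraries, for 5 of the 10 genes between ICM and 2iES cells and for 5 between ICM and morula. ICM minus 2iES, the log2 effects differed by 3.03 for *Cdx2*, 2.79 for *Tfap2a*, 2.60 for *Eomes*, 2.19 for *Gata3* and -1.60 for *Klf6*. *Eomes* was called higher in the ICM and lower in 2iES cells. *Klf6* was called higher in 2iES cells, while in the ICM its log2 change of -0.41 was not called, with an adjusted p of up to 0.158 over the alternatives. *Tfap2a* lost the adjusted p under 0.05 with any 1 of the 8 ICM and 2iES libraries left out, and *Cdx2* with any of 5 of them. *Cdx2* had 11, 4, 4 and 3 counts in the 2iES libraries, so its difference against 2iES cells rests on few counts. Over the alternatives that difference ranged from 2.16 to 3.64.

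ICM minus morula, the log2 effects differed by 4.81 for *Elf5*, 3.06 for *Gata3*, 2.12 for *Cdx2*, 1.47 for *Eomes* and 1.01 for *Tfap2c*. With 1 of the 8 ICM and morula libraries left out, *Cdx2* lost it in 7 of 8 fits, *Eomes* in 7 and *Elf5* in 5, and *Gata3* and *Tfap2c* in 0. The size of the *Elf5* difference against morulae ranged from 4.04 to 6.96 over the alternatives. No group held the 4 libraries that a test for single outlying libraries needs.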

How the results depend on the processing

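Counts of called genes among the 10 moved as follows. The morula count went from 0 to 1 (*Hand1*) without the count filter, with DESeq2 and with the replicate number as a block, the ICM count from 5 to 8 without the fold limit (*Klf6*, *Msx2* and *Tfap2c* added) and to 6 without the FPKM limit (*Tfap2a*) and with upper quartiles or library totals (*Tfap2c*), and the count of DMSO ICM against 2iES cells from 3 to 5 with library totals only (*Msx2* and *Tfap2c* added) and to 4 without the fold limit (*Tfap2c*) or the FPKM limit (*Elf5*). Without the FPKM limit morula against late two-cell went from 7 to 9, with *Elf5* higher and *Gata2* lower in morulae, and ICM against morula from 7 to 8 (*Gata2*). With only the 8 libraries the effects in the ICM against those in morulae went from 5 to 6 (*Tfap2a*). With 1 library left out, where a lone library is taken to vary like the other group, counts were 0 to 0 at the late two-cell stage, 0 to 1 in morulae, 4 to 6 in the ICM, 4 to 4 in 2iES cells, 6 to 7 for morula against late two-cell, 6 to 7 for ICM against morula, 3 to 4 for ICM against 2iES cells, and 3 to 4 and 2 to 4 for the effects in the ICM against those in 2iES cells and morulae. The replicate block also removed *Cdx2* from the last, which then held 4, and changed no other count. At the late two-cell stage each library correlated best with its own number.

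Directions that turned belonged to values that did not pass the test. In morulae *Cdx2* was at -0.012 with library totals only, -0.0090 with a pseudocount of 0.1 and -0.00776 with 1, *Msx2* at -0.024, -0.026 and -0.018 under the same 3, and *Elf5* at 0.015 with RLE scaling, 0.019 with DESeq2, 0.077 with all 18 libraries and 0.42 and 0.18 with the pseudocounts. The replicate block put *Hand1* at 0.20 from late two-cell to morula, and library totals put *Eomes* at 0.19 for ICM against 2iES cells. With 1 library left out, log2 changes ranged from -0.33 to 0.078 for *Gata2* and from -0.11 to 0.24 for *Gata3* at the late two-cell stage. In morulae they ranged from -0.032 to 0.19 for *Cdx2*, -0.59 to 0.024 for *Gata3*, -0.28 to 1.01 for *Tfap2a*, -0.23 to 0.039 for *Tfap2c*, -0.29 to 0.093 for *Eomes*, -0.61 to 0.47 for *Elf5*, -0.33 to 0.57 for *Msx2* and -0.090 to 0.38 for *Klf6*. *Hand1* ranged from -0.57 to 0.021 from late two-cell to morula. Differences between effects ranged from -0.56 to 0.027 for *Gata2* and -0.68 to 4.46 for *Hand1* against 2iES cells, and from -4.59 to 0.56 for *Hand1* against morulae. The cause was not tested. Over all results 536 values under other alternatives and 369 with a library left out kept their direction and side of the threshold, and 18 and 43 changed side only. Genes with under 10 counts, such as *Hand1* in the ICM, are limited by depth.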
